A study of Callithrix jacchus with 20 samples.

Results

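The donor fibroblast of a somatic cell nuclear transfer (SCNT) study in the common marmoset was compared with the control embryonic stem cells (ESCs) that served as the reference for cloned lines. SCNT places a somatic nucleus in an enucleated oocyte, and the comparison measures which genes the donor nucleus expressed and which genes of a fertilization-derived ESC it did not. The members were fixed by the sample labels: 1 fibroblast library from a wildtype donor and 4 control ESC lines, 5 of the 20 libraries of the series. The controls were lines #15 and #17 from in vitro fertilization (IVF) and lines #13 and #37 from natural fertilization (NAT). All 4 were labelled wildtype. They were taken as 1 group. The control lines came from fertilized embryos, without nuclear transfer. The study's methods describe culture without feeder cells on a laminin matrix, in medium conditioned by mouse fibroblasts with basic FGF, for the cloned lines. They do not describe the culture of the control lines separately. The study's methods describe the fibroblasts as isolated from ear skin biopsies by tissue digestion, frozen at an early passage and held at confluency before nuclear transfer. Neither the age nor the identity of the donor animal was in the label of this library, and whether the cells were confluent when RNA was taken was not stated in the sources used here. The study describes the WT cloned lines as reprogrammed from WT donor fibroblasts.

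Dermal fibroblasts make and remodel the collagen-rich matrix of the skin, and they keep a record of their place in the body in the expression of HOX and other developmental transcription factors. Primed primate ESCs form flat epithelial colonies, divide quickly with a short G1 phase, and hold the pluripotency network of POU5F1, SOX2 and NANOG in place with FGF and Activin/NODAL signals. After nuclear transfer the oocyte has to silence the former program and open the latter, much of which lies in somatic chromatin under repressive marks such as H3K9 methylation. In the study the cloned embryos received trichostatin A (TSA, an inhibitor of histone deacetylases), mRNA for the H3K9 demethylase Kdm4d, and RK-701, an inhibitor of the H3K9 methyltransferase G9a/EHMT2, for this reason.

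Expression was measured as TPM, which divides reads by transcript length and scales each library to a sum of 1000000. With 1 fibroblast library there is no replicate on that side, and no test was made. Each gene is described by its log2 ratio, which is log2(TPM + 0.1) of the fibroblast minus the mean of the 4 control log2 values, and by whether the fibroblast lay outside the range of the 4 lines. SD always refers to the 4 control lines (n = 4), and where their 4 values are given they stand in the order #13, #15, #17 and #37. This ratio understates the difference of low genes. A gene listed at 0 TPM on one side is given by its levels and no ratio, although it counts in list medians at the value that the added 0.1 TPM gives it. Genes were kept when the mean of the fibroblast level and the control mean was at least 0.5 TPM, which left 16004 of 22327 genes. In bulk RNA, fewer cells of a kind and less RNA per cell cannot be told apart. Genes with near-identical copies elsewhere in the genome, such as KRT8, KRT18, POU5F1, NANOG and the IFITM genes, carry an added uncertainty, since only uniquely mapped reads were counted.

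The fibroblast differed from the ESCs in most of the transcriptome. It lay outside the range of the 4 lines at 13697 of the 16004 genes kept, above all of them at 5763 and below all of them at 7934. Of the genes kept, 3493 (21.8%) were at least 2-fold higher than the control mean and above every line, and 4704 (29.4%) were at least 2-fold lower and below every line. These shares are the reference for the counts in every gene list below. List counts and medians cover all measured genes of a list. Genes below the filter could not be called, so the called shares of lists with many low genes are understated beside this reference. With an 8-fold limit the numbers were 1143 higher (7.14%) and 1892 lower (11.8%). The median log2 ratio of all genes kept was -0.24, so the lower side was the larger one with TPM as deposited. Under quantile normalization this median moved to -0.02, and the 2-fold numbers became 4276 higher and 4069 lower. The median SD among the control lines was 0.22 on the log2 scale. Spearman's correlation across the kept genes was 0.686 to 0.720 between the fibroblast and each control line and 0.969 to 0.982 between pairs of control lines, as a description across genes.

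**Figure D1:**
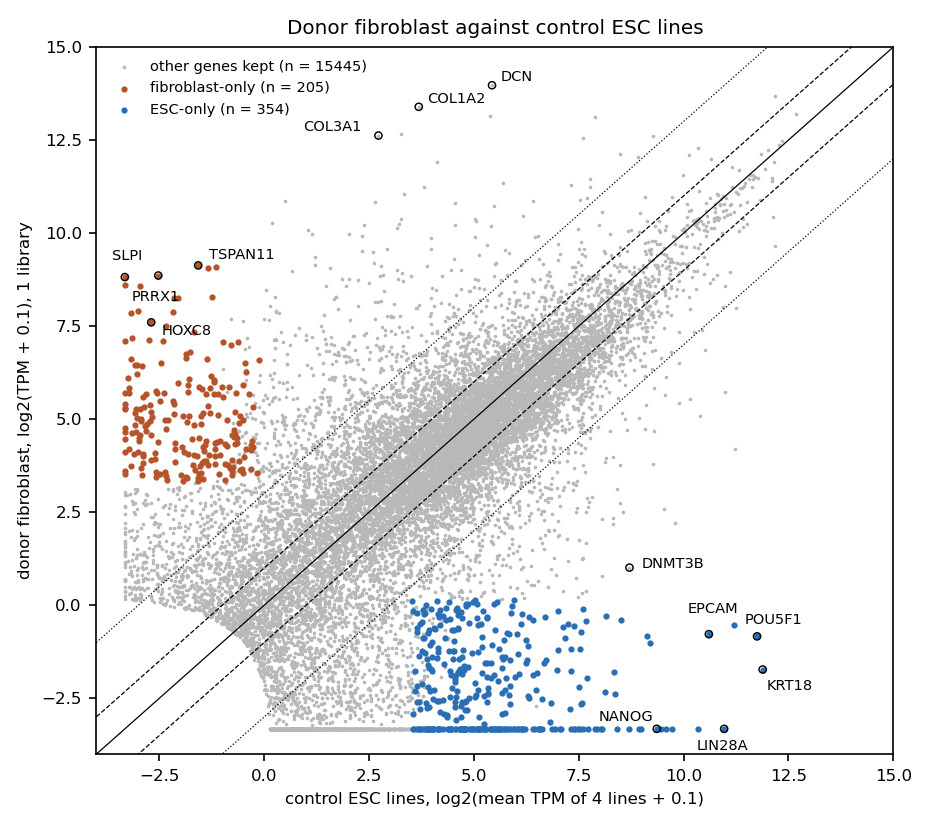
Each point is 1 of the 16004 genes kept, with log2(mean TPM of the 4 control ESC lines + 0.1) on the x axis and log2(TPM + 0.1) of the 1 donor fibroblast library on the y axis. The solid line marks equal levels, the dashed lines 2-fold and the dotted lines 8-fold differences. The 205 fibroblast-only genes sit at the upper left and the 354 ESC-only genes at the lower right, many of them at the floor of the axis where the gene is listed at 0 TPM.

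The fibroblast library was also more concentrated, with a slightly lower estimated depth. Its 10 highest genes held 9.24% of the TPM against 4.68% to 5.06% in the control lines, and it listed 4140 genes at 0 against 1540 to 1664. A relative depth was estimated from the ratio that recurs most often among genes of less than 0.5 TPM in a pair of libraries. The estimate follows reads divided by transcript length, so it also shifts with which transcripts are abundant. With control ESC #13 set to 1 it was 0.810 for the fibroblast and 0.957 to 1.01 for the other control lines. Among the controls, line #37 most often held the highest control value, at 17 of the 42 fibroblast matrix genes and 19 of the 41 mesenchymal transcription factors examined below, although the sums of both lists were highest in other lines. The part of depth in the results was not tested. Without line #37 the fibroblast-only genes numbered 244 in place of 205, and without any 1 line the 2-fold and 8-fold numbers stayed within 1.5 times of those given.

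The library carried the markers of its label. Of 12 fibroblast markers, 11 were at least 2-fold above the control mean and above all 4 lines. The 12 summed to 48236 TPM in the fibroblast against 584 to 1770 in the control lines. The exception was FBLN1 (fibulin 1, a matrix glycoprotein), at 187 TPM against 207 to 546. All 10 pluripotency markers were at least 8-fold below the control lines and 7 of them were listed at 0, with a sum of 1.59 TPM against 7812 to 9463. Markers of other cells that a skin biopsy can hold were mostly low, and their part in the results was not tested. None of the 10 keratinocyte markers was at least 2-fold higher than in the ESCs and 2 were at least 2-fold lower. They summed to 23.0 TPM against 62.2 to 159.6, most of it KRT10 at 18.9 TPM against 10.2 to 13.1, and KRT14 and KRT5 stood at 0.189 and 0.246. Of the 10 endothelial markers 1 was higher and 7 lower, and they summed to 9.04 TPM against 234 to 265, with CDH5 and PECAM1 listed at 0. Of the 6 melanocyte markers 1 was higher and 3 lower, and they summed to 7.68 TPM against 28.9 to 40.3, with SOX10 and DCT listed at 0. Of the 8 blood and immune markers 1 was higher and 2 lower, and they summed to 153 TPM against 75.4 to 272. PTPRC, the pan-leukocyte gene, was listed at 0, and CD68, a lysosomal glycoprotein of macrophages, stood at 146 TPM against 2.43 to 3.57 in the ESCs. Of the 10 pericyte and smooth muscle markers 5 were higher and 2 lower, and they summed to 315 TPM against 124 to 158, with CSPG4 at 33.5, DES at 46.9 and ABCC9 at 20.5 TPM while RGS5, a defining pericyte gene, was listed at 0 and MCAM stood at 1.93.

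**Figure D2:**
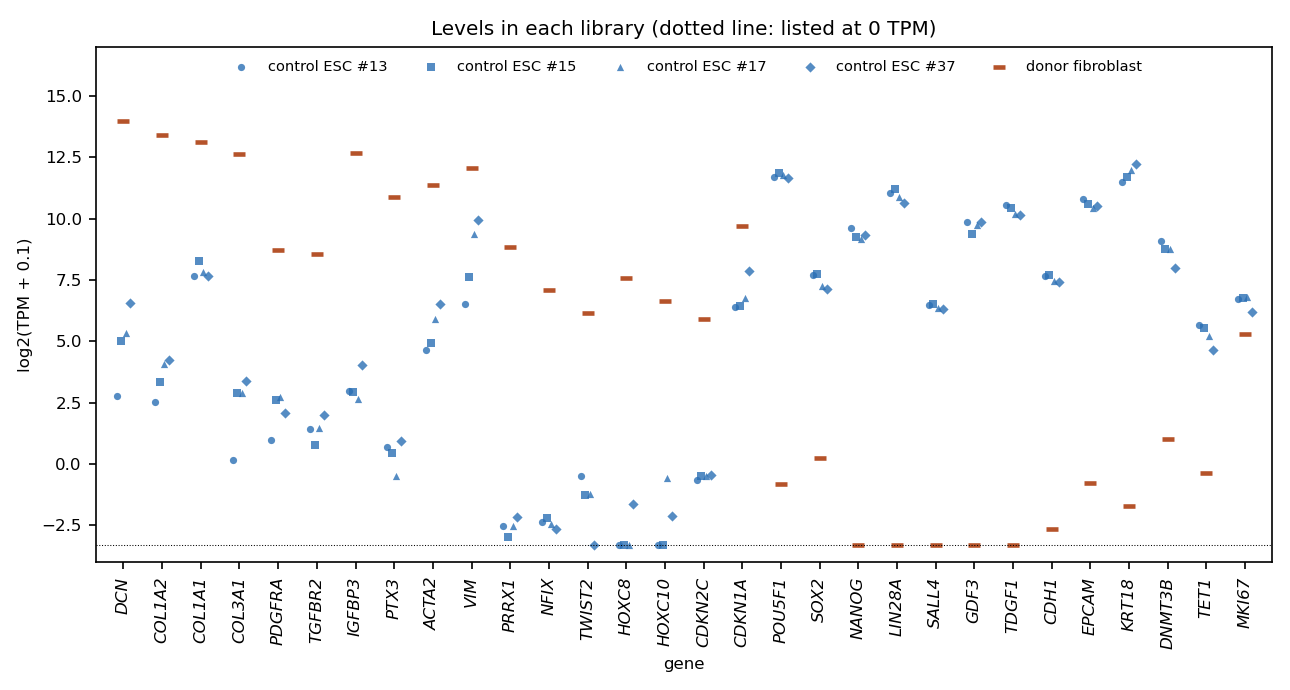
Levels of 30 genes in each of the 5 libraries as log2(TPM + 0.1), with the donor fibroblast as an orange bar and the 4 control ESC lines as blue symbols, and the dotted line at genes listed at 0 TPM. DCN to CDKN1A lie above all 4 control lines in the fibroblast, POU5F1 to MKI67 lie below them, and NANOG, LIN28A, SALL4, GDF3 and TDGF1 sit on the dotted line in the fibroblast.

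The extremes were described as a pair of classes. A gene was called fibroblast-only when it reached 10 TPM in the fibroblast and stayed under 1 TPM in every control line, and ESC-only when every control line reached 10 TPM and the fibroblast stayed under 1 TPM. Of the 22327 genes, 205 (0.918%) were fibroblast-only and 354 (1.59%) were ESC-only. The fibroblast-only genes made up 1.23% of the fibroblast TPM and at most 0.00560% of any control line, and the ESC-only genes made up 3.71% to 3.88% of the control TPM and 0.00793% of the fibroblast. Of 8112 genes that reached 10 TPM in every control line, 6875 also reached 10 TPM in the fibroblast. Just outside the limits, 212 further genes reached 10 TPM in the fibroblast with control lines on both sides of 1 TPM, and 338 genes on in every control line had 1 to 5 TPM in the fibroblast.

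The highest fibroblast-only gene was TSPAN11, a tetraspanin, at 561 TPM against 0.141, 0.220, 0.0994 and 0.485 TPM in the 4 control lines. Among the other high ones were IGFBP5, a binding protein for insulin-like growth factors, at 544 TPM against 0.129 to 0.669, and the homeobox factor PRRX1 at 464 TPM against 0.0254 to 0.125. SLPI, a secreted inhibitor of leukocyte proteases, and CCL11, the chemokine eotaxin, reached 451 and 386 TPM and were listed at 0 in all 4 ESC lines. NPR3, the clearance receptor for natriuretic peptides, stood at 382 TPM, LTBP2, a latent TGF-beta binding protein of microfibrils, at 312, INMT, a methyltransferase, at 306, and the dermal matrix protein dermatopontin (DPT) at 236. No control line exceeded 0.669 TPM at any of these 9 genes. Of the 205 genes 13 were listed at 0 in all 4 control lines, among them FAP and MMP1.

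The most abundant ESC-only genes were epithelial and pluripotency genes. KRT18, the keratin of simple epithelia, had 2904, 3339, 4109 and 4771 TPM in the 4 control lines and 0.202 TPM in the fibroblast. POU5F1, the central pluripotency factor, had 3358, 3691, 3506 and 3233 TPM in the 4 control lines and 0.460 TPM in the fibroblast. KRT8, the partner of KRT18, had 1763 to 3042 TPM in the lines against 0.589. LIN28A, which blocks maturation of let-7 microRNAs, had 1607 to 2354 TPM, EPCAM, an epithelial adhesion molecule, 1396 to 1791 TPM, and TDGF1, the NODAL co-receptor, 1138 to 1511 TPM. Of these 3, LIN28A and TDGF1 were listed at 0 in the fibroblast and EPCAM stood at 0.483 TPM. In all, 133 of the 354 ESC-only genes were listed at 0 in the fibroblast.

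Of all lists examined, matrix genes carried the largest share of the fibroblast transcriptome. The 42 genes of the fibroblast matrix list summed to 81830 TPM, 8.18% of the library, against 0.481% to 0.594% in the control lines. Of them 38 were at least 2-fold higher and 34 at least 8-fold higher, 1 was lower, and the median log2 ratio was 5.35 against -0.24 over all genes. DCN (decorin), a proteoglycan that organizes collagen fibrils, was the most abundant gene of the library at 16074 TPM, against 6.72, 31.8, 40.0 and 93.8 TPM in the 4 control lines (log2 ratio 9.06, SD 1.58). The control lines differed widely among themselves, and the fibroblast stood 171-fold above the highest of them. COL1A2, a chain of type I collagen, had 10756 TPM against 5.60, 9.92, 17.0 and 18.6 TPM in the 4 control lines (log2 ratio 9.86, SD 0.79). COL1A1, the other chain, had 8901 TPM against 204, 312, 227 and 203 TPM in the 4 control lines (log2 ratio 5.26, SD 0.29). In TPM, which is per transcript length, the level of COL1A2 was the higher one in the fibroblast and that of COL1A1 was the higher one in each of the 4 ESC lines. COL3A1 (type III collagen) had 6295 TPM against 1.03 to 10.2, COL14A1 (a fibril-associated collagen) 304 against 0.0137 to 0.308, and MGP (matrix Gla protein) 87.7 against 0 to 0.0909. SPARC, a collagen-binding glycoprotein, was high on both sides, with 4041 TPM against 1395 to 1775. ELN (elastin), the fibre protein of elastic skin, went the other way, with 0.119 TPM against 1.25 to 4.58.

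Genes that process collagen and remodel matrix followed the same direction. Of 26 genes of collagen maturation 19 were at least 2-fold higher and 0 lower, with a median log2 ratio of 2.08. The largest ratios belonged to PCOLCE, the enhancer of procollagen C-proteinase, at 1830.2 TPM against 4.91 to 6.87, the crosslinking enzyme LOX at 738 against 3.27 to 8.01, and the procollagen N-proteinases ADAMTS14 and ADAMTS2 at 58.3 and 121. Of 22 matrix proteases and inhibitors 15 were higher and 4 lower. FAP (fibroblast activation protein) and the collagenase MMP1 were listed at 0 in all ESC lines and reached 138 and 51.6 TPM, and CTSK (cathepsin K) stood at 225 against 1.59 to 3.15. On the lower side were the gelatinase MMP9, at 0.121 TPM against 22.3 to 131, and PLAT, the tissue plasminogen activator, at 90.6 against 789 to 1179.8.

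Surface receptors and secreted factors of mesenchymal cells were also higher. Of 28 receptors and surface proteins 19 were at least 2-fold higher and none lower. TGFBR2, the ligand-binding TGF-beta receptor, had 379 TPM against 1.62 to 3.87 (log2 ratio 7.15, SD 0.49), PDGFRA 425 against 1.89 to 6.48, and IL1R1 176 against 1.34 to 2.02. THY1 (CD90), often used as a fibroblast surface marker, separated the cell types less, with 183 TPM against 34.6, 59.9, 22.4 and 29.0 TPM in the 4 control lines (log2 ratio 2.43, SD 0.60). ITGB1, the common integrin beta chain, was the most abundant of them at 1072 TPM against 339 to 539, and CAVIN1, a coat protein of caveolae, lay above the control lines by less than 2-fold, at 882 TPM against 577 to 702. Of 32 secreted factors 24 were higher and 3 lower. IGFBP3, which binds insulin-like growth factors in the extracellular space, was the most abundant at 6465 TPM against 7.79, 7.52, 6.13 and 16.2 TPM in the 4 control lines (log2 ratio 9.51, SD 0.61). PTX3, a soluble pattern recognition protein, had 1867 TPM against 0.611 to 1.83. The 3 lower ones were CXCL8, CXCL1 and STC1, the last of them ESC-only, at 0.447 TPM against 11.7 to 15.4.

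Genes of the actin cytoskeleton were mostly higher in the fibroblast, some of them by a wide margin. Of 24 genes of the actin and contractile list 18 were higher, with a median log2 ratio of 2.17. ACTA2 (smooth muscle actin, the marker of myofibroblasts) had 2623 TPM against 25.3, 30.6, 59.7 and 92.1 TPM in the 4 control lines (log2 ratio 5.85, SD 0.86). VIM (vimentin) had 4258 TPM against 92.2, 195, 664 and 978 TPM in the 4 control lines, so that lines #17 and #37 lay between lines #13 and #15 and the fibroblast. S100A6 and S100A4, calcium-binding proteins, stood at 2399 and 973 TPM against at most 31.7 and 9.13, and LGALS1 (galectin 1) was abundant on both sides, at 13164 TPM against 3632 to 5734. ACTG2, an actin of visceral smooth muscle, was the 1 lower gene, below the 27.1 to 64.8 TPM of the control lines (log2 ratio -1.01, SD 0.53).

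**Figure D3:**
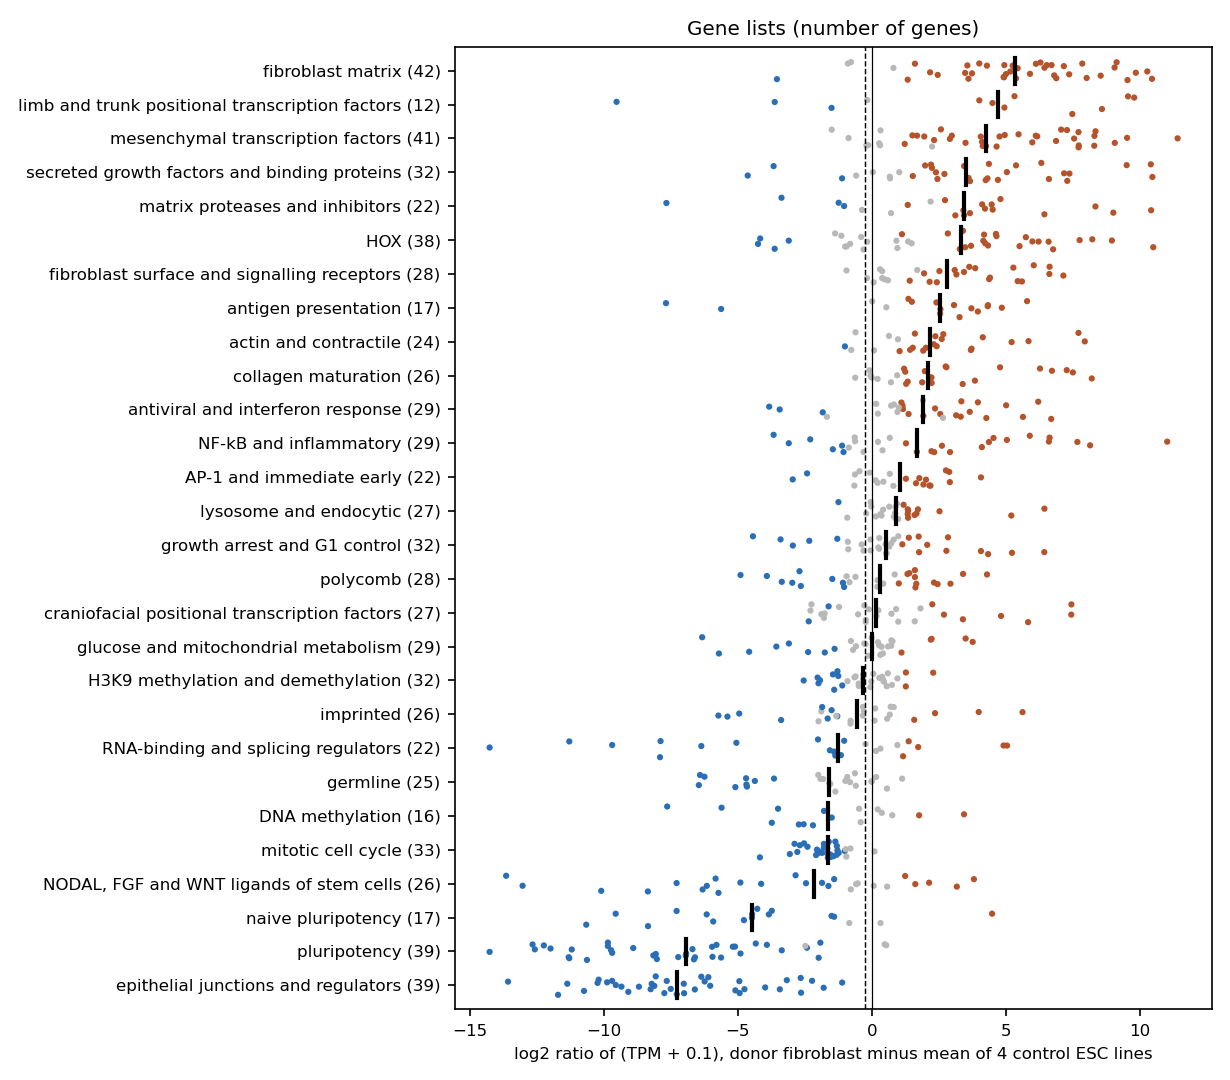
Log2 ratio of the fibroblast to the control ESC lines (x axis) for the genes of 28 lists (y axis, number of genes in brackets). Each point is 1 gene, orange when at least 2-fold higher and above all 4 lines, blue when at least 2-fold lower and below all 4 lines, and grey otherwise, the black bar is the list median, and the dashed line at -0.24 is the median of all genes kept. The epithelial and pluripotency lists lie almost wholly to the left and the matrix and mesenchymal transcription factor lists to the right.

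Most transcription factors of mesenchyme were higher in the fibroblast. Of 41 factors 33 were at least 2-fold higher and none lower, 12 were fibroblast-only, and the median log2 ratio was 4.26. PRRX1, a factor of limb and skin mesenchyme, had 0.0728, 0.0254, 0.0720 and 0.125 TPM in the 4 control lines beside its 464 TPM in the fibroblast. NFIX, a nuclear factor I protein, had 138 TPM against 0.0580 to 0.118, TBX15, a T-box factor of skin and skeleton, 57.4 against 0 to 0.0308, and NR2F1 (COUP-TFI) 38.3 against 0 to 0.0522. The epithelial to mesenchymal transition factors of the list, TWIST1, TWIST2, ZEB1, ZEB2, SNAI1 and SNAI2, were all at least 2-fold higher, from 32.9 TPM for ZEB2 to 177 TPM for SNAI2, and in the control lines they did not exceed 17.2 TPM. KLF4 and STAT3, which act in both cell types, lay inside the control range, at 93.1 TPM against 53.2 to 148 and 156 against 116 to 172.

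The HOX genes differed by cluster. Of 38 HOX genes 22 were at least 2-fold higher in the fibroblast and 4 lower, 7 were fibroblast-only, and the list summed to 521 TPM against 13.3 to 61.0 in the control lines. The HOXC cluster held most of it, with 391 TPM against 0.0643 to 1.01. HOXC8 was the highest HOX gene at 194 TPM and was listed at 0 in control ESC #13, #15 and #17 and at 0.219 TPM in #37. HOXC10, HOXC6 and HOXC9 followed at 98.9, 51.9 and 25.0 TPM, against at most 0.572, 0.220 and 0.0814 TPM in any control line. By gene order HOXC6, HOXC8 and HOXC9 formed 1 of the longest runs of fibroblast-only neighbours. In the HOXA cluster 9 of 11 genes were higher, with 87.4 TPM in all, and in the HOXD cluster 4 of 9. The HOXB cluster went differently, with 2 of 10 genes higher, 3 lower and 4 listed at 0, among them HOXB6, HOXB7 and HOXB8. HOXD1 was the highest HOX gene of the ESCs, at 9.85, 14.3, 13.2 and 27.4 TPM in the 4 control lines, and stood at 0.694 TPM in the fibroblast. The ESC lines themselves were uneven, since line #17 or #37 held the highest control value at 34 of the 38 genes.

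**Figure D4:**
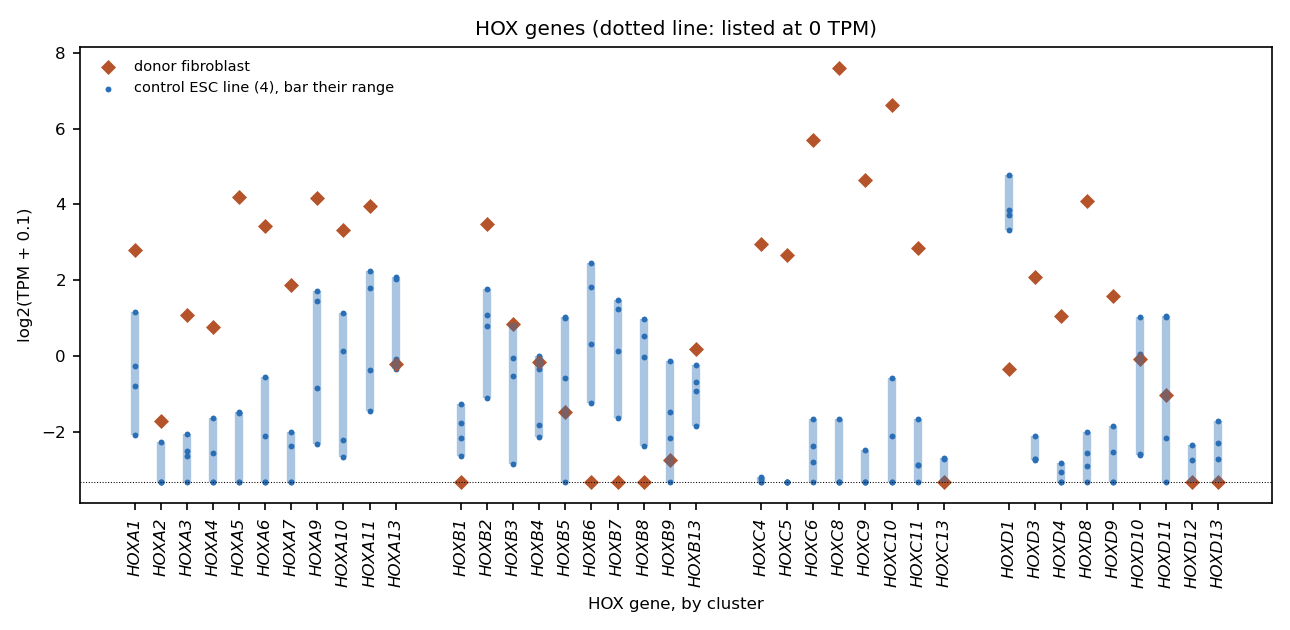
Level of each of the 38 HOX genes, ordered by cluster, as log2(TPM + 0.1), with the donor fibroblast as an orange diamond and the 4 control ESC lines as blue points with a bar over their range. The fibroblast lies above the range across HOXC4 to HOXC11 and most of HOXA, within or below it in HOXB3 to HOXB9, and below it at HOXD1.

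Other positional factors included genes of limb, trunk and head. Of 12 limb and trunk factors 8 were higher and 3 lower, and 6 were fibroblast-only. EMX2 had 97.5 TPM, the homeobox gene SHOX2 88.0, TBX2 57.2, and EN1, a marker of a dermal fibroblast lineage in mouse back skin, 38.4 TPM with 0 listed in all 4 ESC lines. HAND1, a factor of amnion and extraembryonic mesoderm as well as heart, was on in the ESCs, at 27.7 to 142 TPM, and listed at 0 in the fibroblast. Of 27 craniofacial factors 15 were kept, and of these 7 were higher and 2 lower, against 21.8% and 29.4% over all genes kept. The median log2 ratio was 0.98 over the 15 kept and 0.17 over all 27, compared with -0.24 over all genes kept. HAND2, MSX1 and DLX3 were among the higher ones, at 18.4, 25.4 and 17.0 TPM, while PAX3, PAX9, ALX1 and ALX4 stayed under 0.1 TPM. The study's methods name ear skin as the source of fibroblasts, and the culture expressed HOXC8 to HOXC10, which in mouse and human embryos are genes of the trunk and its tail end, beside a small set of craniofacial factors.

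Most genes of the pluripotency network were at or near 0 in the fibroblast. Of 39 measured genes of the network 36 were at least 2-fold lower, 33 at least 8-fold lower and none higher, 19 were listed at 0, and the median log2 ratio was -6.94. POU5F1 had a log2 ratio of -12.59 (SD 0.08), with nearly equal levels in the 4 lines. SOX2 had 1.07 TPM against 207, 217, 151 and 142 TPM in the 4 control lines (log2 ratio -7.23, SD 0.31). NANOG was listed at 0 against 791, 612, 571 and 652 TPM in the 4 control lines, and LIN28A was listed at 0 against 2146, 2354, 1897 and 1607 TPM in the 4 control lines. DPPA4, an early chromatin-associated factor of pluripotent cells, was listed at 0 against 439.7 to 619, as was the forkhead factor FOXD3 against 20.8 to 38.9. JARID2, which recruits polycomb complexes in ESCs, had 7.35 TPM against 177 to 276. CD9, a tetraspanin used to sort stem cells, and ETV5, an FGF target, were the exceptions that lay above the control lines, by less than 2-fold, at 410 TPM against 257 to 328 and 43.8 against 27.4 to 39.7.

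Genes of naive pluripotency, the state before implantation, were mostly low too. Of 17 genes 14 were lower and 1 higher. DPPA3, a maternal factor that guards DNA methylation, was listed at 0 against 321, 125, 116 and 149 TPM in the 4 control lines, NLRP7 at 0 against 28.3 to 199.8, and NR5A2, an activator of POU5F1, at 0 against 26.9 to 42.7. DPPA5 had 2.31 TPM against 48.4 to 391. In the ESCs line #13 held the highest control value at 14 of the 17 genes. KLF2 was the exception, at 69.8 TPM against 1.80 to 3.63 (log2 ratio 4.49, SD 0.48).

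The signals that maintain ESCs were lower at the level of ligand and co-receptor. Of 26 genes of the NODAL, FGF and WNT list 16 were lower and 5 higher. TDGF1 and GDF3, a NODAL co-receptor and a TGF-beta family ligand, were listed at 0 against 1138 to 1511 and 665 to 937 TPM. NODAL itself and FGF4 were listed at 0 against 16.8 to 49.9 and 8.35 to 30.1, and the NODAL antagonist CER1 was listed at 0 against 30.8, 63.8, 372 and 201 TPM in the 4 control lines, which differed widely among the lines. ID2 and ID3, targets of BMP signalling, were higher, at 618 TPM against 35.8 to 102 and 1484 against 318 to 578. SPRY4 and SPRY2, feedback inhibitors induced by FGF signalling, were lower, at 26.2 TPM against 164 to 256 and 26.6 against 117 to 183, whereas immediate early genes were higher, with FOS at 626 TPM against 125, 105, 109 and 35.6 TPM in the 4 control lines and JUNB at 423 against 37.5 to 74.9. Of the 22 AP-1 and immediate early genes 11 were higher and 2 lower, and FOSL1, an AP-1 subunit of fibroblasts, had 123 TPM against 4.36 to 14.9.

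The epithelial list was the only one of the 41 lists in which every measured gene was called in the same direction. All 39 measured genes were at least 2-fold lower and below all 4 control lines, 34 of them at least 8-fold, 28 were ESC-only, and the median log2 ratio was -7.29. The pluripotency list, with 19 genes listed at 0 in the fibroblast against 6 here, had a median of -6.94. Both depend on the added value. Across the alternatives the epithelial median ranged from -8.49 to -5.12 and the pluripotency median from -8.48 to -5.15, so the 2 lists were not ranked. The list summed to 189 TPM against 10133 to 13168. CDH1 (E-cadherin) had 0.0609 TPM against 204, 209, 178 and 169.7 TPM in the 4 control lines (log2 ratio -10.20, SD 0.15). EPCAM had a log2 ratio of -11.37 (SD 0.16), and the protease inhibitor SPINT2 had 0.0898 TPM against 302 to 354. ESRP1, the splicing regulator that sets epithelial isoforms, had 0.117 TPM against 168 to 199. The smallest difference was that of JUP (plakoglobin), at 70.8 TPM against 142 to 174. By gene order KRT18 and KRT8, DPPA2 and DPPA4, and GDF3 and DPPA3 were neighbouring pairs among the ESC-only genes, and 34 of 333 ESC-only genes placed by the annotation had an ESC-only neighbour.

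RNA-binding proteins were found on both sides. Of 22 genes 13 were lower and 5 higher, against 29.4% and 21.8% over all genes. LIN28A and LIN28B were listed at 0, the latter against 150.5 to 347 TPM, and the mRNA-binding protein IGF2BP3 had 0.582 TPM against 127 to 196. MBNL1 and MBNL2, splicing factors that act against pluripotent isoforms in human cells, were higher, at 72.3 TPM against 2.16, 1.69, 1.84 and 2.85 TPM in the 4 control lines and 74.4 against 1.46 to 3.82.

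Genes of DNA methylation were mostly lower in the fibroblast. Of 16 DNA methylation genes 9 were lower and 2 higher. DNMT3B, a de novo methyltransferase, had 1.92 TPM against 549, 432, 439.7 and 253 TPM in the 4 control lines (log2 ratio -7.64, SD 0.48), TET1, which oxidizes methylcytosine, 0.683 against 24.8 to 50.1, and DNMT3A 8.99 against 97.4 to 109. DNMT1, the maintenance enzyme, differed by less than 2-fold, at 53.7 TPM against 37.0 to 47.7, and MBD2, a reader of methylated DNA, was higher at 103 against 8.46 to 10.2.

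The H3K9 machinery, which the study's treatments address, was on in both cell types. Of 32 genes 9 were at least 2-fold lower and 3 higher, against 29.4% and 21.8% over all genes. None reached 8-fold, and the median log2 ratio of -0.32 was near the -0.24 of all genes. EHMT2 (G9a), the target of RK-701, had 43.5 TPM in the fibroblast against 258, 189, 155 and 131 TPM in the 4 control lines (log2 ratio -2.03, SD 0.42). Its partner EHMT1 had 21.9 TPM against 79.2 to 91.1. KDM4D, the marmoset counterpart of the injected demethylase, was low on both sides, at 1.07 TPM against 0.681, 0.733, 0.837 and 0.911 TPM in the 4 control lines. TRIM28, the corepressor that brings H3K9 methylation to retroelements, had 162 TPM against 875 to 1019.7, and HDAC2, a histone deacetylase of the class that TSA inhibits, 139 against 496 to 610.5. TASOR, a scaffold of the HUSH silencing complex, was the gene with the largest positive ratio, at 26.7 TPM against 4.90 to 5.68. CBX3 (HP1 gamma), the most abundant member of the list in the fibroblast, lay inside the control range, at 252 TPM against 239.9 to 272.

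The polycomb genes, which place H3K27 methylation and H2A ubiquitination, split by subunit. Of 28 genes 12 were higher and 9 lower, against 21.8% and 29.4% over all genes. Higher were subunits of canonical or variant complex 1 such as PCGF5 (126 TPM against 3.64 to 12.3), BMI1 (51.2 against 7.90 to 11.8) and CBX6 (106 against 12.9 to 15.7). Lower were JARID2, CBX2 (5.15 against 68.1 to 87.3) and EZH2, the H3K27 methyltransferase of dividing cells (18.4 against 118 to 123), while its paralog EZH1 was higher (18.3 against 5.04 to 8.04).

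Genes of the mitotic cycle were detected in the fibroblast at lower levels than in the ESCs. Of 33 mitotic cell cycle genes 29 were at least 2-fold lower, 2 of them at least 8-fold, and none was higher, with a median log2 ratio of -1.64. MKI67 had 39.8 TPM against 105, 110.2, 113 and 73.7 TPM in the 4 control lines (log2 ratio -1.31, SD 0.29), PCNA 185 against 406 to 496, and TYMS 219 against 173 to 277, inside the control range. Of 32 genes of growth arrest and G1 control 11 were higher and 5 lower. The inhibitors of cyclin-dependent kinases were among the higher ones: CDKN1A (p21) had 839 TPM against 84.2, 87.0, 109 and 234 TPM in the 4 control lines (log2 ratio 2.84, SD 0.69), CDKN2A 23.2 against 0.583 to 2.95, and CDKN2C 60.7 against 0.534 to 0.640. CDKN2B had 10.7 TPM against 1.92, 1.89, 7.19 and 10.0 TPM in the 4 control lines, so the fibroblast stood just above the highest line. GAS1 and GAS6, first described in growth-arrested fibroblasts of mouse, had 276 and 303 TPM against at most 15.6 and 21.4. CCND2, a D-type cyclin, went the other way, at 2.45 TPM against 48.7 to 67.4.

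Metabolic genes were called at shares not above those of all genes. Of 29 genes 5 were higher and 8 lower, against 21.8% and 29.4% over all genes, and the median log2 ratio was -0.01. The glucose transporter SLC2A1 had 25.4 TPM against 708, 414, 631 and 749.8 TPM in the 4 control lines, the glycine cleavage enzyme GLDC 3.24 against 129 to 261, and UCP2 was listed at 0 against 6.96 to 9.34. PDK4 and CPT1A, which favour fatty acid oxidation, were higher, at 5.49 TPM against 0.101 to 0.896 and 43.0 against 1.66 to 8.61.

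Most genes of the immune and interferon lists were higher in the fibroblast. Of 29 antiviral and interferon response genes 17 were higher and 3 lower. IFI6 had 312 TPM against 1.31 to 4.74, IFITM1 17.4 against 0 in 3 lines and 3.01 in #37, and STING1 17.6 against 0.117 to 0.344. Of 17 genes of antigen presentation 13 were higher and 2 lower, with B2M at 1969 TPM against 229, 171, 160 and 274 TPM in the 4 control lines and the immunoproteasome subunits PSMB8 and PSMB9 at 22.6 and 14.9. Of 29 NF-kB and inflammatory genes 16 were higher and 6 lower, with TNFAIP6, which binds hyaluronan, at 229 TPM against 0 to 0.0456 and the complement proteases C1R and C1S at 314 and 234 against 0.409 to 1.49 and 0.757 to 1.87. Among the lower genes were CD74 of antigen presentation, at 0.838 TPM against 171 to 230, and CXCL1 of the NF-kB list, at 2.18 against 17.0 to 62.7.

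Lysosomal genes differed less. Of 27 genes 11 were higher and 1 lower, with a median log2 ratio of 0.90, and GPNMB, a glycoprotein of lysosome-rich cells, had 205 TPM against 2.89 to 10.9.

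Of 26 measured imprinted genes 4 were higher, 8 lower and 14 neither, against 21.8% higher and 29.4% lower over all genes kept. Of the 26, 22 were kept and could be called. MEST, a paternally expressed hydrolase, had 6.59 TPM against 329, 361, 359 and 374 TPM in the 4 control lines (log2 ratio -5.73, SD 0.08), PEG3 6.72 against 169.7 to 245, and DLK1 was listed at 0 against 3.23 to 4.69. PLAGL1, a zinc finger factor of the same class, was fibroblast-only at 40.4 TPM against 0.521 to 0.941, and SGCE had 263 against 15.0 to 18.5. Germline genes were low on both sides. Of 25 measured genes 13 were kept, and of these 9 were lower and none higher. TDRD1 of the piRNA pathway, STRA8 and PIWIL1 were listed at 0 against 6.22 to 10.9, 6.72 to 9.51 and 4.92 to 10.1 TPM.

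Both classes were then read in libraries that their limits did not use. The cloned ntESC lines were 3 from wildtype donors (WT) and 4 from GFP-transgenic donors (GFP), and each had gone through nuclear transfer with the treatments above. As a reference, each control line was left out in turn, the classes were formed with the other 3, and the line left out was read at those genes. A left-out control line had 7 to 39 fibroblast-only genes at 1 TPM or more, which was 3.30% of 212 in #13, 5.09% of 216 in #15, 3.76% of 213 in #17 and 16.0% of 244 in #37. In the ntESC lines 1.46% to 26.8% of the 205 genes reached 1 TPM. WT #61, GFP #24 and GFP #55 had 3, 7 and 9 such genes, GFP #54 and GFP #50 had 19 and 20, and WT #30 and WT #53 had 33 and 55. The left-out lines and the ntESC lines were read here at unlike gene sets, since genes on in 1 control line are removed from the 205. Each ntESC line was therefore also read at the genes chosen without each control line, a choice made after the data were seen. At the 244 genes chosen without #37, which itself had 39 (16.0%), WT #30 had 62 (25.4%), WT #53 had 86 (35.2%), GFP #50 had 39 and the other 4 had 3 to 29. WT #30 and WT #53 were above the left-out line at all 4 gene sets and WT #61 was below it at all 4. At most 1 fibroblast-only gene reached 10 TPM in any ntESC line, and 133 of the 205 stayed under 1 TPM in all 7.

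WT #30 and WT #53 had 29 of these genes in common. They included HOXC6, at 51.9 TPM in the fibroblast and 1.87 and 4.57 TPM in the 2 lines, and the imprinted PLAGL1, at 9.63 and 7.86 TPM. GFP #50 also had both over 1 TPM, at 1.47 and 2.57 TPM. The study names WT #30, WT #53 and GFP #50 as its lines with broadly raised HOX genes. HOXC8 stood at 3.39 and 3.01 TPM in the 2 lines, at 0.607 TPM in GFP #50, at 0.0648 in WT #61 and at 0 in the other 3. PRRX1, the highest of the fibroblast-only transcription factors, stayed at or under 0.301 TPM in all 7 ntESC lines. The same 2 WT lines had more RNA of some mesenchymal genes and not of others, with DCN at 808 and 454 TPM and VIM at 2208 and 2203 TPM, against at most 97.0 and 507 in the other ntESC lines. COL3A1 and COL1A2 were higher there too. COL3A1 stood at 120 and 102 TPM against 0.577 to 11.1, and COL1A2 at 72.0 and 26.8 TPM against 4.15 to 20.5. THY1 went the other way, at 4.58 and 4.85 TPM against 9.62 to 27.3 in the other ntESC lines, and COL1A1 stood at 79.6 and 129 TPM against 107 to 295. Whether the fibroblast-only RNA of WT #30 and WT #53 was left from the donor or came with differentiation was not tested.

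On the side to be switched on, a left-out control line had 91.5% to 97.0% of the ESC-only genes at 10 TPM or more. Of the 354 genes chosen with all 4 lines, WT #30 and WT #53 had 72.9% and 74.3%, and the other 5 had 89.5% to 94.6%. At the gene sets chosen without each control line, WT #30 and WT #53 had 69.0% to 72.9% and the other 5 had 84.6% to 93.4%. Of the 354 genes 212 reached 10 TPM in all 7 ntESC lines, and 5 fell under 1 TPM in at least 1 of them. Among the 5 were the RPS2-like genes that the study names as lower in its ntESCs, with at least 278 and 41.0 TPM in the control lines. They were under 1 TPM in 6 of the 7 ntESC lines and stood at 324 and 53.2 TPM in WT #30. The caution above on near-identical copies and uniquely mapped reads may apply to such RPS2-like genes, and the part of mapping in these values was not tested. The rest of the 5 were each under 1 TPM in 1 line. In WT #30 and WT #53 the shortfall was in degree, since 1 and 3 ESC-only genes were under 1 TPM there. SOX2 stood at 41.4 and 71.1 TPM in these lines and NANOG at 131 and 328, against 1.07 and 0 TPM in the fibroblast. No adjustment for depth was made in these counts.

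**Figure D5:**
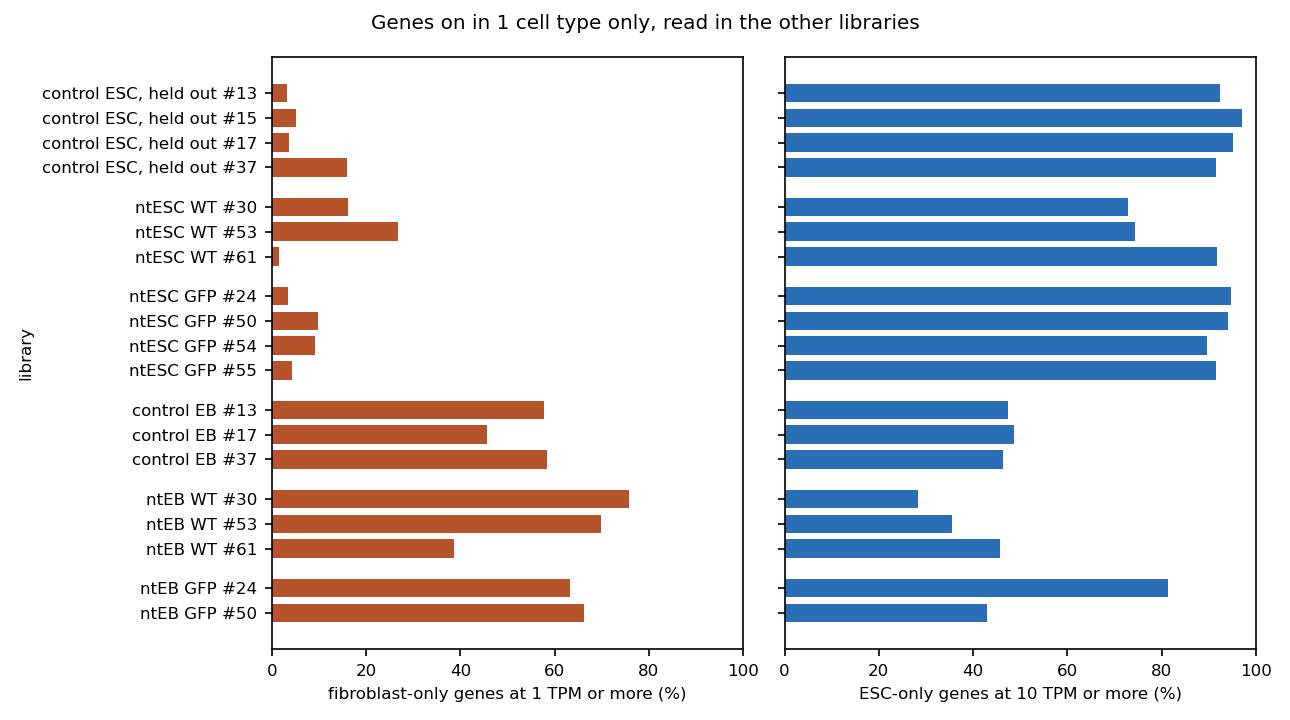
Percent of fibroblast-only genes at 1 TPM or more (left) and of ESC-only genes at 10 TPM or more (right) in each ntESC and EB library, and in each control ESC line read at the larger gene sets chosen without it, with 1 bar per library. WT #30 and WT #53 have the longest left bars (16.1% and 26.8%) and the shortest right bars (72.9% and 74.3%) of the ntESC lines, and the EB libraries have left bars of 38.7% to 75.9%.

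Embryoid bodies (EBs), in which ESCs differentiate without direction, expressed many of the fibroblast-only genes. The EB table was normalized on its own, and 199 of the 205 fibroblast-only and all 354 ESC-only genes were in it. In the control EBs 45.7% to 58.3% of the fibroblast-only genes reached 1 TPM and 14.1% to 17.1% reached 10 TPM. In the ntEBs 38.7% (WT #61) to 75.9% (WT #30) reached 1 TPM. DCN stood at 1428 to 2476 TPM in the control EBs and COL3A1 at 1605 to 3073 TPM, while PRRX1 reached at most 1.37 TPM there and 4.14 TPM in any EB, against 464 in the fibroblast. ESC-only genes at 10 TPM or more were 46.3% to 48.6% in the control EBs. ntEB GFP #24 stood apart with 81.4% and with POU5F1 at 1247 TPM, against 0.487 to 3.32 TPM in the control EBs.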

How the data were processed

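RNA was sequenced from poly(A)-selected, stranded libraries of the 5 samples. Per the submitters' processing notes and the study's methods, reads were trimmed with fastp, aligned to calJac4 with STAR and counted with featureCounts on uniquely mapped reads, and genes of the sex chromosomes were left out. The deposited values are TPM, computed by the authors for stem cells and EBs in separate tables. TPM keeps no depth, and which sequencer ran each library was not given. Of 22330 genes, 3 more that the reference used here places on X or Y were left out. Ratios used log2(TPM + 0.1) in Python 3.11.15 with numpy 2.4.6 and pandas 2.3.3, and the counting was tested on simulated data. The authors' annotation was not used here, and names and gene order came from a RefSeq table of another assembly, so no coordinates are given, and a planned description of promoters was not made. The alternatives were other added values, filters, limits and scalings, and fewer control lines.

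The samples, the 41 gene lists and the rule were chosen with earlier results of these data known. The rule named, per list, the 4 largest ratios in the main direction, 2 in the other, and the most abundant gene on each side, then the 12 highest fibroblast-only and ESC-only genes, the 10 largest ratios each way, and a fixed set of core genes. ADIPOQ, ALX1, ALX4, ASPN, CD48, COL2A1, CXCL8, DCT, DNMT1, DPPA2, ECM2, ETV5, EZH1, EZH2, FBLN1, HOXB3, HOXB7, HOXB8, HOXB9, HOXC11, HOXC4, KRT14, KRT5, LTB, OMD, PAX3, PAX9, PLIN1, PTPRC, RBP4, SALL4, SNAI1, SNAI2, TNF, TWIST1, TWIST2, ZEB1 and ZEB2 were named outside this rule, after their values were seen. Some genes that the rule names are not reported here.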

Additional observations from a re-analysis of the deposited data

Results flagged for a closer look

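At 24 of the 208 genes named, 1 of the 4 control ESC lines lay far from the other 3 on the log2 scale, by Dixon's test of the gap to the nearest line. Chance alone flags about 1 group in 20. At 11 of the 24 the other 3 lines were listed at 0, which fixes the flag, and 13 remain without them. Line #37 was the low line at FOS with 35.6 TPM against 105 to 125 in the others, at JUNB with 37.5 against 71.5 to 74.9, at MKI67 with 73.7 against 105 to 113, at EHMT1 with 79.2 against 89.0 to 91.1 and at PSMB8 with 0.620 against 1.14 to 1.26. It was the high line at IFITM1 with 3.01 TPM and at HOXC8 with 0.219 and ALX1 with 0.0897 against 0 in the others, and at ECM2 with 0.0923 against 0.0356 to 0.0376.

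Line #13 was low at COL3A1 with 1.03 TPM against 7.34 to 10.2, at C1R with 0.409 against 1.21 to 1.49 and at KLF2 with 1.80 against 3.54 to 3.63. It was high at DPPA4 with 619 TPM against 439.7 to 457, at DPPA2 with 72.1 against 40.8 to 44.2 and at STAT3 with 172 against 116 to 119, and at ADIPOQ with 0.0474 against 0. Line #15 was high at S100A4 with 9.13 TPM against 3.31 to 3.74. The rest were traces in 1 line where the other 3 were listed at 0, namely EMX2 with 0.0455 TPM, HOXC9 with 0.0814, OMD with 0.0519, TBX15 with 0.0308 and TNFAIP6 with 0.0456 in #15, and HAND2 with 0.0261 and MGP with 0.0909 in #17. At STAT3 the fibroblast lay inside the control range because of line #13, since its 156 TPM was above the other 3 lines.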

How the results depend on the processing

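The numbers at least 2-fold higher or lower stayed within 1.5 times of those given under every alternative run. The 8-fold numbers depended on how low values were treated. With 1 TPM added in place of 0.1, 665 genes were at least 8-fold higher and 772 at least 8-fold lower, since a larger added value shrinks ratios of low genes. With a filter of 2 TPM, 1186 were at least 8-fold lower. With limits of 20 and 1 TPM there were 130 fibroblast-only and 202 ESC-only genes. Leaving out each control line in turn gave 3436 to 3532 genes 2-fold higher, 4654 to 4815 2-fold lower, 1117 to 1194 8-fold higher, 1878 to 1930 8-fold lower, 212 to 244 fibroblast-only and 365 to 387 ESC-only. The median log2 ratio of the kept genes moved from -0.24 to -0.05 under median-ratio scaling and to -0.02 under quantile normalization. Of the 41 list medians, 38 kept their sign in every alternative, and the exceptions were craniofacial factors, glucose and mitochondrial metabolism and keratinocyte markers. Their size was less stable. With 1 TPM added, 26 of the 41 moved by at least the SD among the control lines, and under quantile normalization 26 did. The endoderm median, for example, ranged from -7.55 to -1.55. No called gene among those named changed direction. No paired analysis was possible because the comparison has 1 fibroblast library and no test. The fibroblast side has no replicate, so none of these ranges covers its own variation, and genes listed at 0 may lie below the detection limit, which TPM does not state.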

Other observations

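Several genes best known from immune or endocrine cells were ESC genes here. PYY, a gut peptide hormone, had 876, 681, 729 and 751 TPM in the 4 control lines and was listed at 0 in the fibroblast. FOLR1, a folate receptor, had 501 to 520.4 TPM in the control lines and was also listed at 0. CD74, the invariant chain of MHC class II, had 0.838 TPM in the fibroblast against 202, 230, 176 and 171 TPM in the 4 control lines. CD14, a lipopolysaccharide co-receptor, had 3.33 TPM against 67.6, 93.9, 169.8 and 264 TPM in the 4 control lines, and VCAM1, an adhesion molecule for leukocytes, 0.327 against 13.1 to 35.3. PECAM1 was listed at 0 against 167 to 206. TNF and CD48, chosen after their values were seen, had 0.188 and 0 TPM in the fibroblast against 159 to 423 and 247 to 424, while the pan-leukocyte gene PTPRC did not exceed 0.127 TPM in any control line. By gene order TNF was next to LTB among the ESC-only genes.

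RBP4, the retinol carrier of plasma and also chosen after its values were seen, was the fifth most abundant gene of the fibroblast at 9111 TPM against 34.0 to 46.4. Adipocyte markers were low apart from regulators: CEBPA and PPARG had 67.0 and 36.2 TPM against at most 8.10 and 2.91, while ADIPOQ and PLIN1 stood at 0.469 and 0.469. Of 14 cartilage markers 3 were higher and 9 lower, with COMP, a matrix protein of cartilage and tendon, at 103 TPM against 2.98 to 4.23 and COL2A1 at 0.0496. Of 8 Schwann cell markers 2 were higher and 5 lower, with PMP22 at 232 TPM against 18.2 to 32.2 and SOX10 listed at 0, and of 8 skeletal muscle markers 1 was higher and 4 lower.

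Markers of early lineages were mostly lower in the fibroblast, with exceptions. Of 9 endoderm markers 6 were lower in the fibroblast and 1 higher, the latter PDGFRA, and GATA4 was listed at 0 against 22.5 to 24.8 TPM, while GATA6 lay inside the control range at 15.6 TPM against 9.03 to 59.3. Of 9 primitive streak markers 6 were lower and none higher, with TBXT listed at 0 against 17.3, 7.33, 14.0 and 15.7 TPM in the 4 control lines, while MIXL1 lay inside the range at 12.5 TPM against 5.67 to 13.8. Of 10 amnion and trophoblast markers 6 were lower and none higher, with GATA3 at 2.25 TPM against 19.2 to 51.3. Of 7 neural markers 2 were lower and 1 higher, with NES at 47.1 TPM against 301 to 389.6.

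Some class genes lay next to each other. Of 193 fibroblast-only genes matched to the gene order of the annotation, 19 (9.84%) had a fibroblast-only gene on at least 1 side, and the class made up 0.997% of matched genes. The longest runs held 3 genes, ECM2, ASPN and OMD among them, which encode small leucine-rich matrix proteins. For the ESC-only genes the share was 10.2%, and they made up 1.72% of matched genes. The shares are not on the same scale, since a gene has a neighbour on each side, neighbours include duplicated genes, and no test was made.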
